A study of Mus musculus with 53 samples.

Results

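The genes described here are 8 mouse genes of antigen presentation and the interferon response: B2m, H2-D1, H2-K1, Stat2, Irf9, Ifitm3, Ifih1 and Bst2. They were taken by symbol from a table of 12372 genes, and all 8 were present. The table held RNA sequencing counts for 4 brain regions (brainstem, cerebellum, cortex and striatum). The donors were wild-type mice and MJD84.2 mice, a model of spinocerebellar ataxia type 3 (SCA3). The 53 libraries came from 14 male C57BL/6 mice of 74 to 77 weeks, 8 wild-type and 6 SCA3, with 1 library per mouse and region. SCA3 mice were hemizygous for the complete human ATXN3 gene carrying an expanded CAG repeat under its own promoter, and like the wild-type mice they kept their own Atxn3 gene. None of the mice had received a treatment. Wild-type libraries numbered 8 for brainstem, 7 for cerebellum, 7 for cortex and 8 for striatum, and SCA3 libraries 6, 6, 6 and 5.

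MHC class I molecules display peptides from inside the cell to T cells. Each consists of a heavy chain, such as the products of H2-D1 and H2-K1, bound to beta-2-microglobulin, the product of B2m. Type I interferons act through the receptor chains Ifnar1 and Ifnar2 and the kinases Jak1 and Tyk2, after which Stat2 and Irf9 act in the complex ISGF3 that binds interferon-stimulated response elements (ISRE) in DNA. Ifih1 encodes MDA5, a cytoplasmic sensor of long double-stranded RNA. Ifitm3 encodes a membrane protein that limits virus entry, and Bst2 encodes tetherin, which holds budding virus particles at the cell surface. Class I expression is low in healthy brain compared with most organs, with microglia and endothelium as known sites.

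Levels are given in CPM, which are counts divided by the library total, here adjusted by TMM (edgeR's correction for composition), and put on a common scale. The libraries held between 31.7 and 76.7 M counts each (mega), and the lowest count of any of the 8 genes in any library was 86. RNA integrity numbers (RIN) ran from 5.7 to 9. In brainstem they were 6.3 to 7.6 (median 7.3) in wild-type and 7.4 to 8 (median 7.9) in SCA3 libraries. Summed marker levels separated brainstem and cerebellum from the other regions: the cerebellar sum (4 markers measured) was 3472 CPM or more in every cerebellum library and at most 278.5 CPM elsewhere, and the brainstem sum (2 markers, Glra1 and Slc17a6) was at least 340.2 CPM in brainstem and at most 320.4 CPM elsewhere. The sums for cortex (Neurod6 and Lamp5) and striatum (6 markers) overlapped with other regions. The lowest striatal sum in striatum was 1048 CPM, and a cortex library reached 2117 CPM. In 3 wild-type striatum libraries (mice 7267058, 7267059 and 9083373) the sum of 12 thalamic markers was 1955, 2920 and 766.3 CPM, against 205.7 to 509 CPM in the 5 SCA3 striatum libraries.

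In a pair of wild-type libraries the 8 genes stood highest as a group. In brainstem of mouse 7267059 (RIN 6.3) all 8 genes were above their group mean, by 0.535 log2 units on average, and in striatum of mouse 7267058 (RIN 6.2) all 8 were above theirs, by 0.431. All 8 were also above their group mean in wild-type cerebellum of mouse 9083371 (0.308) and wild-type cortex of mouse 9083372 (0.0888). In SCA3 mice the same was found in brainstem of mouse 9083513 (0.293) and cortex of mouse 9083514 (0.329). The lowest library, wild-type striatum of mouse 9083372, was at -0.393. The brainstem library of mouse 7267059 also had the highest marker sums of several cell types among all brainstem libraries. Its sum was 531.3 CPM for 5 meningeal fibroblast markers (next highest 202.3), 1052 CPM for 18 microglial markers (next 826.4), 10060 CPM for 12 astrocyte markers (next 8442), 21860 CPM for 12 mature oligodendrocyte markers (next 21220) and 385 CPM for 8 pericyte and smooth muscle markers (next 335.7). The 1 border macrophage marker measured was also highest there (8.709 CPM, next 4.277), while endothelial and neuron marker sums were not. Their part in the values of the 8 genes was not tested. Results that change without the brainstem library of mouse 7267059 and the striatum library of mouse 7267058 are also given without them. Both are wild-type and were picked for high values of the 8 genes. Leaving them out thus lowers wild-type levels and raises SCA3 minus wild-type values in those regions by construction. In bulk tissue, fewer cells of a type and less RNA per cell cannot be told apart.

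B2m was the most abundant of the 8 genes per length of exon. In wild-type brainstem its level was 175 ± 36 CPM per kb (SD, n = 8), with an exon length of 860 bases. H2-K1 followed with 28.2 ± 5.6 CPM per kb and then Ifitm3 with 13.4 ± 6.93. Stat2 (9.35 ± 0.767), H2-D1 (8.04 ± 1.66), Bst2 (6.38 ± 1.6) and Irf9 (5.69 ± 0.639) lay below them on the same scale. The RNA sensor gene Ifih1 was the lowest, at 1.48 ± 0.423 CPM per kb. In wild-type cerebellum Stat2 had moved to second place after B2m, with 33.7 ± 4.59 CPM per kb (n = 7) against 27.5 ± 3.67 for H2-K1.

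**Figure D1:**
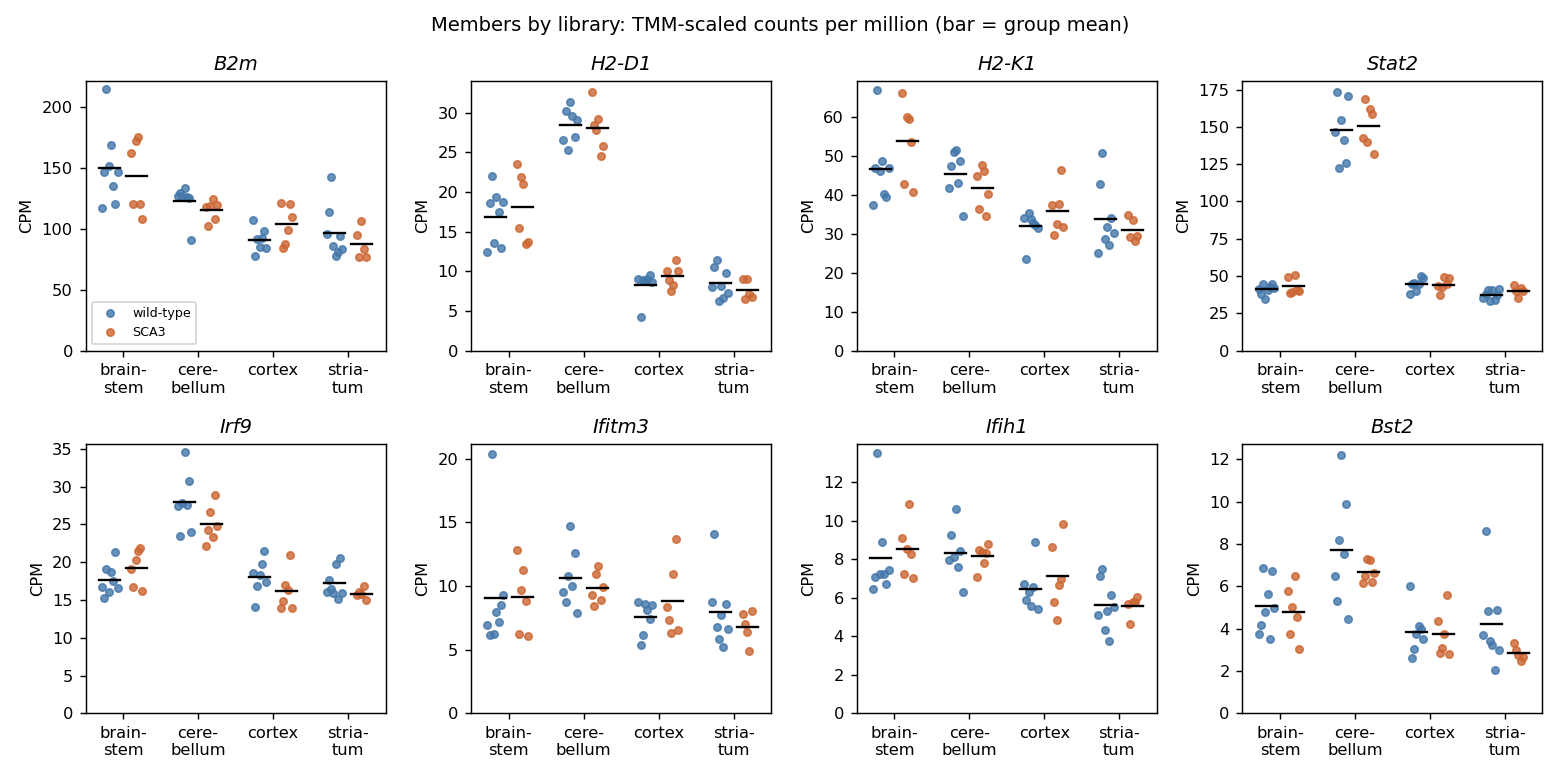
Level of each of the 8 genes in every library (points, CPM on a linear axis from 0) by region, with wild-type libraries in blue, SCA3 libraries in orange and the group mean as a black bar. Stat2 reached 122.4 to 173.7 CPM in cerebellum and at most 50.41 CPM in the other regions, and in every gene and region the wild-type and SCA3 points overlapped.

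The promoter sequences show which of the 8 genes carry the element that ISGF3 binds. RefSeq promoters (250 bases before to 50 after the start, GRCm38.p6) were searched on both strands for the ISRE core, GAAA, any 2 bases and GAAA again (TTTC, any 2 bases and TTTC on the opposite strand). It was found in 5 of the 8 genes, B2m, Stat2, Ifitm3, Ifih1 and Bst2, and in 3.99% of 27025 genes with a promoter sequence. The shorter class I form GAAGTGAAA, read as TTTCACTTC on the gene's strand, was found in H2-D1 and H2-K1 and in 0.596% of all genes. The GAS element TTCNNNGAA, known from interferon-gamma responses, was found in Ifitm3 and Bst2 and in 9.55% of all genes, and it overlapped an ISRE match in both. None of the 3 motifs was present in the Irf9 windows. Each match below is shown in a 30-base window on the strand of the gene, 5′ to 3′, with the motif in capitals.
B2m, chr2:122147538-122147567 (+), 139 bases before the start: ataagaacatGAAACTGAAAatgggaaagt
H2-D1, chr17:35262934-35262963 (+), 150 bases before the start: atctcctcagTTTCACTTCtgcacctaacc
H2-K1, chr17:34000418-34000447 (-), 90 bases before the nearer of its starts: atctccacagTTTCACTTCtgcacctaacc
Stat2, chr10:128270266-128270295 (+), 222 bases before the start: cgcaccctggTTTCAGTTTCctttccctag
Ifitm3, chr7:141010706-141010735 (-), from base 20 of the transcript: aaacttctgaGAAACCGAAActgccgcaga
Ifih1, chr2:62646206-62646235 (-), from base 33 of the transcript: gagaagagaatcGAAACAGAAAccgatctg
Bst2, chr8:71537577-71537606 (-), 124 bases before the start: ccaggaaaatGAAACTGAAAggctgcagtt
Ifitm3 and Bst2 each held another ISRE match that overlaps the window printed. The B2m and Bst2 cores were the same 10 letters, and the H2-D1 and H2-K1 windows had the same 9-letter core. Over a longer aligned stretch, which lies before the H2-D1 start and before the farther of the H2-K1 starts, H2-D1 and H2-K1 shared 172 of 192 positions (89.6%). In GENCODE M21 a longer H2-D1 transcript begins at position 35262730, so the H2-D1 window is upstream of the RefSeq start and inside the first exon of that transcript. A match in letters does not show that a factor binds.

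B2m lies on chromosome 2 (chr2:122147686-122153083, GRCm38, plus strand). In wild-type mice its level in CPM ran from 117.4 to 214.6 with a median of 146.8 in brainstem, from 91.24 to 133.5 with a median of 126.9 in cerebellum, from 77.55 to 107 with a median of 92.02 in cortex and from 78.14 to 142.3 with a median of 90.14 in striatum. The order was thus brainstem, cerebellum, then cortex and striatum, and brainstem and cortex did not overlap. Cortex was lower than brainstem by a log2 fold change of -0.72 (SE 0.121, FDR 1.4e-08, edgeR likelihood ratio test with Benjamini-Hochberg adjustment over all genes) in 7 of 7 mice. Cerebellum was lower than brainstem by -0.29 (SE 0.121, FDR 0.0234), but this call was lost without wild-type mouse 7267059 (-0.21, FDR 0.078) or without mouse 9083375 (-0.24, FDR 0.092). Striatum was lower than cerebellum (-0.34, SE 0.121, FDR 0.00766), a call lost without mouse 9083371 (-0.28, FDR 0.0521). Striatum and cortex did not differ beyond their spread (0.09, SE 0.121, FDR 0.592).

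H2-D1, on chromosome 17 (chr17:35262730-35267499, plus strand), encodes a classical class I heavy chain and had the clearest regional steps of the class I genes. Its wild-type level ran from 25.25 to 31.41 CPM (median 29.12) in cerebellum, from 12.4 to 22.01 CPM (median 18.03) in brainstem, from 4.28 to 9.583 CPM (median 8.897) in cortex and from 6.313 to 11.46 CPM (median 8.121) in striatum. Cerebellum overlapped with no other region, and brainstem lay above cortex and striatum with no shared range. H2-D1 was 1.68-fold higher in cerebellum than in brainstem (log2 0.75, SE 0.14, FDR 2.35e-07), and in cortex it was 0.294 of the cerebellar level (log2 -1.77, SE 0.146, FDR 8.58e-31). Cortex and striatum could not be separated (log2 0.03, SE 0.143, FDR 0.877). SCA3 mice showed the same steps, with 24.49 to 32.58 CPM in cerebellum and 7.575 to 11.46 CPM in cortex.

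H2-K1 (chr17:33996017-34000347, minus strand) encodes another class I heavy chain. The wild-type range was 37.47 to 67.1 CPM (median 46.47) in brainstem, 34.49 to 51.56 CPM (median 47.55) in cerebellum, 23.57 to 35.34 CPM (median 32.87) in cortex and 25.13 to 50.74 CPM (median 31.04) in striatum. Unlike H2-D1, its level in cerebellum did not differ from brainstem beyond the spread (log2 -0.04, SE 0.127, FDR 0.809). In SCA3 mice H2-K1 was lower in cerebellum than in brainstem (log2 -0.37, FDR 0.0147), with medians of 42.55 and 56.61 CPM, while the test of region dependence of the genotype difference had an FDR of 0.749. Cortex was lower than brainstem (log2 -0.54, SE 0.127, FDR 6.02e-05) and lower in 7 of 7 mice, and striatum was lower than brainstem in 8 of 8 mice (log2 -0.46, SE 0.123, FDR 0.000421). H2-K1 and H2-D1 resemble each other and other class I genes, and only uniquely aligned reads were counted, so their absolute levels are uncertain.

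Stat2, the signal transducer that brings Irf9 into ISGF3 (chr10:128270559-128292849, plus strand), differed most between regions. Its wild-type level was 122.4 to 173.7 CPM in cerebellum (median 146.9), against 34.72 to 44.88 CPM in brainstem (median 41.65), 37.8 to 50.31 CPM in cortex (median 44.74) and 33.21 to 41.59 CPM in striatum (median 37.75). All cerebellum libraries lay above all others. The cerebellar level was 3.6-fold that of brainstem (log2 1.85, SE 0.0787, FDR 3.64e-115), and over the 20 alternative analyses of the region comparison this log2 value ran from 1.80 to 1.90. Of the 8 genes Stat2 alone was called between striatum and cortex (log2 -0.24, SE 0.0793, FDR 0.0107), a call lost without mouse 9083373 (FDR 0.0523) and in SCA3 mice (-0.14, FDR 0.254). Neither cortex nor striatum differed from brainstem beyond the spread.

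Irf9, the DNA-binding partner of Stat2 in ISGF3 (chr14:55603571-55610030, plus strand), was also highest in cerebellum, by a smaller step. Wild-type libraries had 23.51 to 34.64 CPM in cerebellum (median 27.63), 15.22 to 21.39 CPM in brainstem (median 17.17), 14.14 to 21.45 CPM in cortex (median 18.35) and 15.12 to 20.56 CPM in striatum (median 16.29). The cerebellar range shared no value with the others, which overlapped among themselves. Cerebellum was 1.58-fold above brainstem (log2 0.66, SE 0.0924, FDR 2.86e-12). The other 3 regions were not separated in wild-type mice, whereas in SCA3 mice Irf9 was lower in cortex than in brainstem (log2 -0.25, FDR 0.0277) and lower in striatum than in brainstem (log2 -0.28, FDR 0.0166). The difference between the genotypes in this step did not pass the test of region dependence (FDR 0.701). On the same strand, Irf9 exons share 123 bases (3.97% of their length) with exons of Rnf31.

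Ifih1 (chr2:62595798-62646255, minus strand) was low throughout. Its wild-type medians were 7.249 CPM in brainstem (6.47 to 13.51), 8.096 CPM in cerebellum (6.278 to 10.59), 6.285 CPM in cortex (5.425 to 8.872) and 5.421 CPM in striatum (3.749 to 7.488). All pairs of regions overlapped. Striatum was lower than brainstem (log2 -0.53, SE 0.141, FDR 0.000481) and lower than cerebellum (log2 -0.57, SE 0.146, FDR 0.000174), the latter in 7 of 7 mice. The call of cortex below brainstem (log2 -0.31, FDR 0.0494) held in 6 of 20 alternatives. It was lost on leaving out any wild-type mouse except 7267055 and 9083373, the smallest value being without mouse 7267059 (-0.17, FDR 0.252). Cortex was lower than cerebellum (log2 -0.36, FDR 0.0255), a call lost without mouse 9083371 (-0.26, FDR 0.158).

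Ifitm3 (chr7:141009586-141010770, minus strand) had wide ranges within regions. Wild-type libraries ran from 6.174 to 20.39 CPM in brainstem (median 7.546), 7.848 to 14.73 CPM in cerebellum (median 9.968), 5.365 to 8.744 CPM in cortex (median 8.154) and 5.23 to 14.1 CPM in striatum (median 7.254). The brainstem and striatum maxima were the libraries of mice 7267059 and 7267058 described above. With all libraries only cerebellum against cortex was called (cortex minus cerebellum, log2 -0.49, SE 0.215, FDR 0.0349), a call lost on leaving out wild-type mouse 7267058, 9082857, 9083371 or 9083373 (FDR 0.0618 to 0.104). Without these libraries cerebellum was also higher than brainstem (log2 0.50, FDR 0.00428), where the value with them was 0.23 (FDR 0.325), and striatum was lower than cerebellum (log2 -0.58, FDR 0.000936, against -0.41 and FDR 0.0655).

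Bst2 (chr8:71534255-71537456, minus strand) had the lowest counts of the 8 genes. Its wild-type level was 4.45 to 12.22 CPM in cerebellum (median 7.512), 3.499 to 6.85 CPM in brainstem (median 4.882), 2.592 to 6.032 CPM in cortex (median 3.754) and 2.052 to 8.623 CPM in striatum (median 3.558). Ranges overlapped for every pair. Cerebellum was higher than brainstem (log2 0.61, SE 0.212, FDR 0.00598), and cortex was 0.499 of the cerebellar level (log2 -1.0, SE 0.22, FDR 1.46e-05). Brainstem, cortex and striatum were not separated with all libraries. Without mouse 7267058, striatum was lower than brainstem (log2 -0.53, FDR 0.013, against -0.26 and FDR 0.266), and without mouse 7267055 cortex was lower than brainstem (log2 -0.58, FDR 0.0191, against -0.39 and FDR 0.1). In SCA3 mice striatum was lower than brainstem (log2 -0.74, FDR 0.00601), while the test of region dependence had an FDR of 0.899.

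**Figure D2:**
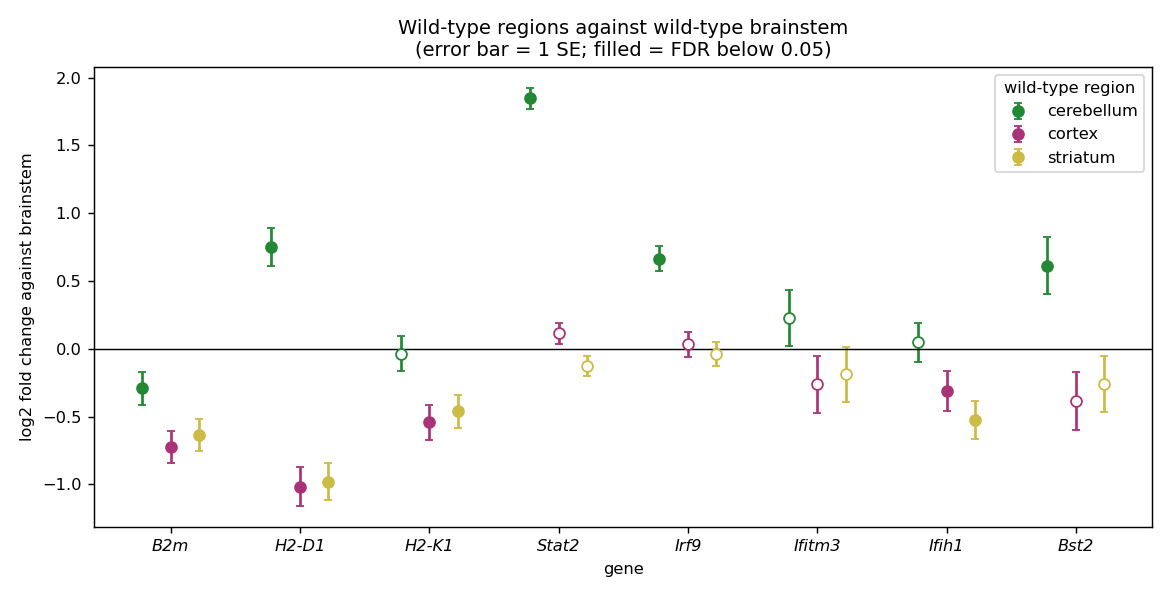
Log2 fold change of each of the 8 genes in wild-type cerebellum (green), cortex (purple) and striatum (yellow) against wild-type brainstem, with 1 SE as error bar and filled points for FDR below 0.05. Stat2 in cerebellum stands at 1.85, while B2m, H2-D1, H2-K1, Ifih1, Ifitm3 and Bst2 lie below 0 in cortex and striatum, the last pair with open points.

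Across the 6 pairs of wild-type regions, 29 of 48 comparisons of the 8 genes were called (60.4%), against 62.6% of such comparisons over all genes, a share near the background. Against cerebellum, 8 of 8 were called in cortex (69.7% of all genes), 7 in striatum (69.5%) and 5 in brainstem (72.6%). Against brainstem, 4 were called in cortex (65.4%) and 4 in striatum (64.2%). Between striatum and cortex 1 was called, Stat2, where 34.4% of all genes were called. H2-D1, Stat2, Irf9 and Bst2 were called higher in cerebellum than in each other region, as were 20.9% of all genes. In SCA3 mice the same was found for H2-D1, Stat2 and Irf9, while Bst2 in cerebellum against brainstem was not called (log2 0.48, FDR 0.0563). B2m, H2-D1, H2-K1 and Ifih1 were called lower in cortex and in striatum than in both brainstem and cerebellum, as were 9.15% of all genes. In SCA3 mice H2-D1 alone of these 4 was called in all 4 pairs: cortex against cerebellum was not called for B2m (FDR 0.319), H2-K1 (FDR 0.177) or Ifih1 (FDR 0.288), and neither was Ifih1 in cortex against brainstem (FDR 0.163). Of the 11 mice with all 4 regions, cerebellum had the highest level in 11 for H2-D1, Stat2 and Irf9, in 10 for Bst2, in 8 for Ifitm3, in 6 for Ifih1, in 5 for H2-K1 and in 3 for B2m. In SCA3 mice 27 of the 48 comparisons were called, 22 of them also called in wild-type mice with the same direction.

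Marker sums of other cell types also differed between regions. The sum of 18 microglial markers had medians of 796.4 CPM in wild-type brainstem, 358.3 in cerebellum, 642.9 in cortex and 759 in striatum. The sum was lowest in cerebellum, where the medians of the 8 genes other than B2m were highest, and 18 of 18 single markers were lower in cerebellum than in brainstem. Between striatum and brainstem 6 of the 18 were higher and 2 lower in striatum (median log2 0.14), although the median sum was higher in brainstem. Endothelial markers (14 of 14 measured) had medians of 424 CPM in wild-type cerebellum, 474.3 in brainstem, 437 in cortex and 401.2 in striatum. Meningeal fibroblast markers (5 of 8 measured) had medians of 204.4 CPM in cerebellum, 96.9 in brainstem, 150.3 in cortex and 59.2 in striatum. By single markers, 1 of the 5 was higher and 0 lower in cerebellum than in brainstem (median log2 0.26). In cortex 0 were higher and 2 lower than in brainstem (median log2 -0.05), although the median sum was higher in cortex. In striatum 5 of 5 were lower than in each other region. Astrocyte markers (12 of 12 measured) had median sums of 7527 CPM in brainstem, 5818 in cerebellum, 5629 in cortex and 6253 in striatum. By single markers, 9 of the 12 were lower than in brainstem in cortex and in striatum, and against cerebellum 8 were lower in cortex and 7 in striatum. Mature oligodendrocyte markers (12 of 12) had median sums of 19300 CPM in brainstem, 4951 in cerebellum, 4463 in cortex and 8802 in striatum, and 12 of 12 were higher in brainstem than in cerebellum and in cortex. Choroid plexus and ependyma markers (4 of 10 measured) had a median sum of 152.1 CPM in wild-type cerebellum. It was 37.34 in brainstem, 62.09 in cortex and 94.93 in striatum. Single wild-type cerebellum libraries ran from 25.88 to 2131 CPM. The sum was highest in those of mice 9083371 and 9083373, which also had the highest Bst2 levels (12.22 and 9.905 CPM). Mouse 9083375 had the next highest sum (366.4 CPM) and the lowest Bst2 level (4.45 CPM). The part of these cell types in the regional levels was not tested. No T cell, NK cell, B cell or plasma cell marker of the lists was among the genes of the table.

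SCA3 was then compared with wild-type mice in each region. None of the 8 genes was called in any region (0 of 32 comparisons, edgeR likelihood ratio test, FDR below 0.05), and 1 comparison had an unadjusted p below 0.05. Over all genes 1.92% were called in brainstem, 0.0647% in cerebellum, 0.154% in cortex and 7.54% in striatum, or 2.42% over the 4 regions, and 10.6% of all comparisons had an unadjusted p below 0.05. The quasi-likelihood F test and DESeq2 called 0 of 32 as well, each with 1 at an unadjusted p below 0.05, and limma-voom called 0 with 0. Wild-type and SCA3 libraries overlapped in 32 of 32 comparisons, where 0.63% of all comparisons over the table had groups without overlap. The 95% interval of the log2 fold change stayed within 1 on either side of 0 in 31 of 32, with half-widths of 0.162 to 0.463, so smaller differences may have gone undetected.

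**Figure D3:**
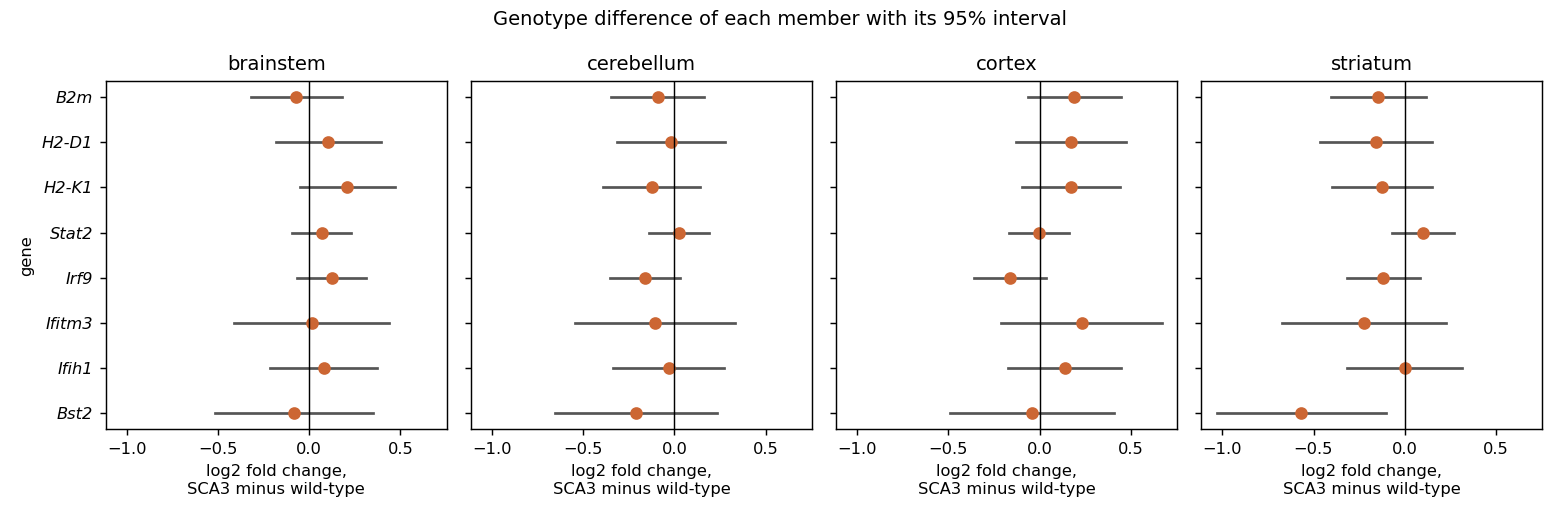
Log2 fold change of SCA3 against wild-type (points) with 95% interval (lines) for each of the 8 genes in the 4 regions. The interval crosses 0 in every comparison except Bst2 in striatum, at -0.57 with an FDR of 0.122.

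The difference with the smallest FDR was that of Bst2 in striatum. In SCA3 striatum its level was 3.328, 2.98, 2.755, 2.486 and 2.685 CPM in the 5 mice, and in wild-type striatum it was 8.623, 4.87, 4.854, 3.712, 3.405, 3.242, 2.988 and 2.052 CPM in the 8 mice. The 5 SCA3 values lay below the wild-type median of 3.558 CPM and within the wild-type range. The log2 fold change was -0.57 (95% interval -1.03 to -0.10, FDR 0.122), and this was the comparison with an unadjusted p below 0.05. The 3 highest wild-type values were those of the libraries with high thalamic marker sums, and without these the log2 fold change was -0.11 (FDR 0.964). Without mouse 7267058 alone it was -0.33 (FDR 0.413), and without wild-type mouse 9083372 it was -0.67 (FDR 0.0663). Over the 29 alternatives it ran from -0.87 to -0.11 and was called in 0.

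For the class I genes the largest genotype differences were an H2-K1 log2 fold change of 0.21 in brainstem and a B2m value of 0.19 in cortex. H2-K1 in SCA3 brainstem ran from 40.68 to 66.13 CPM with a median of 56.61, against a median of 46.47 in wild-type, and 4 of 6 SCA3 mice lay above that median. The 95% interval was -0.05 to 0.47 (FDR 0.507), and without the high wild-type libraries the value was 0.30 (FDR 0.271). Over the 29 alternatives the value ran from 0.10 to 0.30. B2m in cortex ran from 83.97 to 121.1 CPM in SCA3 mice, overlapping the wild-type range (95% interval -0.06 to 0.45, FDR 1). H2-D1 values lay between -0.16 in striatum and 0.17 in cortex, with an FDR of 0.58 or more.

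B2m, H2-D1 and H2-K1 all had negative values in striatum, of -0.14, -0.16 and -0.12. Without the 3 libraries of high thalamic marker sum these were 0.05, 0.07 and 0.12, again with no call. The medians of the astrocyte and mature oligodendrocyte marker sums were 5206 and 6738 CPM in SCA3 striatum, against 6253 and 8802 CPM in wild-type striatum. In brainstem they were 4981 and 12270 CPM in SCA3 mice and 7527 and 19300 CPM in wild-type mice. Astrocyte, mature oligodendrocyte and microglial marker sums overlapped between the genotypes in each region. The microglial median was 670.7 CPM in SCA3 and 796.4 CPM in wild-type brainstem, with 1 of 18 markers called lower. For 5 meningeal fibroblast markers the median log2 fold change was -0.32 in brainstem and -0.354 in striatum. It was 0.0727 in cerebellum and 0.165 in cortex, and 0 were called. Choroid plexus and ependyma sums had medians of 1150 CPM in SCA3 and 152.1 CPM in wild-type cerebellum (0 of 4 called). The part of these cell types in the genotype values was not tested.

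For Stat2 and Irf9 the intervals were the narrowest. Stat2 in SCA3 cerebellum ran from 131.6 to 168.6 CPM with a median of 150.6, within the wild-type range, and the log2 fold change was 0.03 (95% interval -0.14 to 0.19). In the other regions its value lay between -0.003 in cortex and 0.10 in striatum. Irf9 was 0.12 in brainstem and between -0.16 and -0.12 in the other regions, and it had the smallest FDR of the 8 genes in the combined test over the 4 regions (FDR 0.39).

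Ifih1 and Ifitm3 had no value beyond 0.23 in either direction. Ifih1 was -0.0002 in striatum, with 4.629, 5.685, 5.784, 5.802 and 6.067 CPM in the 5 SCA3 mice around a wild-type median of 5.421. Ifitm3 was 0.23 in cortex (95% interval -0.21 to 0.67) and -0.22 in striatum (-0.68 to 0.23). Its brainstem value of 0.01 became 0.29 (FDR 0.57) without the 2 high wild-type libraries and -0.11 (FDR 0.91) without SCA3 mouse 7267054. Over the 29 alternatives it ran from -0.23 to 0.29.

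By region, the median log2 fold change of the 8 genes was 0.07 in brainstem, -0.10 in cerebellum, 0.15 in cortex and -0.13 in striatum, where the median of all genes was between -0.0043 and 0.0028. In cerebellum and in striatum 7 of 8 values were below 0, against 2 in brainstem and 3 in cortex. The 8 values of a region come from the same libraries and most of the genes varied together, so they are not separate observations. The striatum values turned without the 3 wild-type libraries of high thalamic marker sum, with 3 of 8 below 0 and a median of 0.06, and 3 of 8 were also below 0 with a thalamic marker score as covariate (median 0.04). In brainstem the median became 0.15, with 1 value below 0, without the 2 high wild-type libraries. Since those were picked for high values of the 8 genes, a rise was fixed by that choice. With RIN as covariate, brainstem values went from -0.07 to 0.03 for B2m, 0.01 to 0.19 for Ifitm3 and 0.12 to 0.10 for Irf9. The number called stayed at 0. A combined test of genotype over the regions called 0 of 8 (0 at an unadjusted p below 0.05), where 4.73% of all genes were called and 16.6% had an unadjusted p below 0.05. The test of region dependence called 0 of 8 (also 0 at an unadjusted p below 0.05), where the shares of all genes were 0.218% and 9.09%. Each of these counts was also 0 with the quasi-likelihood F test, DESeq2 and limma-voom.

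Other genes of the pathways were examined with lists of class I relatives, peptide processing and loading, class II, interferon receptors and signalling, nucleic acid sensors, interferon-stimulated genes and the IFITM family. Without the 8 genes these held 90 genes of the table. In brainstem 1 was higher and 0 lower in SCA3 mice, 1.11% against 1.92% of all genes. In cerebellum and cortex 0 were called. In striatum 2 were higher and 5 lower, 7.78% against 7.54% of all genes (2.07% higher and 5.47% lower). An unadjusted p below 0.05 was found for 10 of the 90 in brainstem (11.1%, against 13.3% of all genes), 3 in cerebellum (3.33%, against 1.66%), 5 in cortex (5.56%, against 4.07%) and 23 in striatum (25.6%, against 23.2%). The gene called in brainstem was Irf3, a transcription factor that induces interferon genes (24.52 ± 1.92 CPM in wild-type and 29.18 ± 2.42 in SCA3, SD, log2 0.25, FDR 0.0232). None of the 10 interferon genes listed was in the table.

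The 5 lower genes in SCA3 striatum were Psmb10, Tap2, Lgals3bp, Ifit3b and Tap1. Of 15 measured genes for peptide processing and loading, 3 were lower (20%, against 5.47% of all genes) and 0 higher. Tap1 and Tap2 form the transporter that carries peptides into the endoplasmic reticulum. Tap1 was 4.538 ± 0.941 CPM in wild-type and 3.473 ± 0.391 in SCA3 striatum (SD, log2 -0.39, FDR 0.045), and Tap2 was 12.69 ± 1.69 and 10.05 ± 0.797 CPM (log2 -0.34, FDR 0.00736). Psmb10, a catalytic subunit of the immunoproteasome, was 15.59 ± 2.67 and 10.69 ± 2 CPM (log2 -0.54, FDR 0.00324). Of 35 interferon-stimulated genes, Ifit3b (log2 -0.58, FDR 0.0444) and Lgals3bp (log2 -0.60, FDR 0.0199) were lower (5.71%, against 5.47% of all genes) and 0 were higher. Without the 3 wild-type striatum libraries of high thalamic marker sum, none of these 5 genes was called: Tap1 was -0.17 (FDR 0.821), Tap2 -0.20 (FDR 0.452), Psmb10 -0.41 (FDR 0.193), Ifit3b -0.24 (FDR 0.835) and Lgals3bp -0.22 (FDR 0.821).

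The higher genes in SCA3 striatum were Jak2, a kinase of the interferon-gamma receptor (94.02 ± 23.6 CPM in wild-type and 120.2 ± 7.68 in SCA3, log2 0.35, FDR 0.00961), and Traf6, an adaptor of innate immune receptors (log2 0.25, FDR 0.0161). Without the same 3 libraries neither was called, with 0.19 for Jak2 (FDR 0.508) and 0.26 for Traf6 (FDR 0.0658), and the share of all genes called in striatum was 0.792%. Genes with closely related roles were not called in striatum. Ifit1, an interferon-stimulated gene, had a log2 fold change of -0.44 (SE 0.274, FDR 0.33), Ifit3 -0.66 (SE 0.236, FDR 0.0656) and Ifitm2 -0.02 (SE 0.23, FDR 0.966). The receptor genes Ifnar1 and Ifngr1 had values of 0.01 and 0.08, and the non-classical class I gene H2-T23 had 0.10 (FDR 0.746).

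Between wild-type regions the interferon-stimulated genes were mostly lower in the forebrain regions. Of 35 such genes outside the 8, 26 were called between cortex and brainstem (74.3%, against 65.4% of all genes), of which 22 were lower in cortex (62.9% of the 35, against 31.1% of all genes) and 4 higher. The share called was thus not far from that of all genes, and the share lower in cortex was larger. Against brainstem, 22 were lower (62.9%, against 31.5%) and 3 higher in striatum. Against cerebellum, 21 were lower (60.0%, against 34.2%) and 3 higher in cortex, and 22 were lower (62.9%, against 34.2%) and 4 higher in striatum. The median log2 fold changes in these 4 pairs, in the same order, were -0.40, -0.36, -0.43 and -0.43, where the medians of all genes lay between -0.0013 and 0.0202. Between cerebellum and brainstem 15 of 35 were called (42.9%, against 72.6% of all genes), with 7 higher and 8 lower in cerebellum (median 0.06). The sensors and adaptors had 8 of 12 called between cortex and brainstem (66.7%, against 65.4%), all 8 lower in cortex, against 31.1% of all genes. In striatum against brainstem 6 were lower and 1 higher, in cortex against cerebellum 6 and 2, and in striatum against cerebellum 5 and 3. Class I relatives outside the 8 (6 genes) had 3 lower in each of the 4 pairs (50%), and 1 was higher in cortex than in cerebellum. Genes of peptide processing and loading (15) had 6 lower and 2 higher in cortex against brainstem, and 8 lower and 0 higher in striatum against brainstem. Against cerebellum, 5 of the 15 were lower and 5 higher in cortex, and 4 were lower and 2 higher in striatum. Interferon receptors and signalling genes (18) were not lower in most calls, with 4 lower and 6 higher in cortex against brainstem, 3 and 4 in striatum against brainstem, 5 and 5 in cortex against cerebellum and 4 and 5 in striatum against cerebellum. Of 3 class II genes 1 was lower and 2 were higher in cortex than in brainstem. Astrocyte markers were also lower in the forebrain: in the 4 pairs, in the order above, 9, 9, 8 and 7 of the 12 were lower in cortex or striatum and 2 higher in each, with median log2 fold changes of -0.74, -0.61, -0.50 and -0.53. Their part in the values of the interferon-stimulated genes was not tested. These shares are descriptions, and a difference between the lists and all genes was not tested.

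The 8 genes also varied together between mice of the same group. For each library the deviation of log2 CPM from the mean of its region and genotype group was taken, and the correlation over the 53 libraries is given as a description, since several libraries come from the same mouse. Of 28 gene pairs the median Pearson r was 0.548, from 0.0311 (Stat2 with Bst2) to 0.833 (B2m with H2-K1). Without the 2 libraries that stood high, the median was 0.479, from -0.0018 to 0.803 for the same pairs. Ifitm3 and Bst2, whose products both act at membranes against viruses, had an r of 0.791 (0.785 without those libraries). Against the mean of the other 7 genes, H2-K1 had 0.83, Bst2 0.784, B2m 0.78, Ifitm3 0.776, Ifih1 0.709, H2-D1 0.697, Irf9 0.507 and Stat2 0.212. Without the same libraries the values ran from 0.18 for Stat2 to 0.79 for H2-K1. The gene with the largest step between regions was thus the least tied to the others within regions.

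Of all other genes in the table, those most like the mean of the 8 by this measure were Gbp2, a guanylate-binding protein (r = 0.902, Spearman's rho = 0.892), Parp14 (0.878 and 0.842) and Parp9 (0.859 and 0.821), both of the PARP family, Gbp3, another guanylate-binding protein (0.847 and 0.858), and Ddx58, which encodes the RNA sensor RIG-I (0.824 and 0.828). Without the libraries of brainstem mouse 7267059 and striatum mouse 7267058, which lay farthest from the median, r was 0.869, 0.856, 0.832, 0.823 and 0.792. The median r of all genes was -0.0045 and their 95th percentile was 0.477. Of the 10 most similar genes 8 had a RefSeq promoter sequence, and 5 of the 8 held the ISRE core, Gbp2, Gbp3 and Ddx58 among them, against 3.47% of the 9474 genes of the table with a promoter sequence. Marker lists were compared with the 8 genes in the same way, by the mean deviation of their genes. The r was 0.614 for meningeal fibroblast, 0.57 for astrocyte and 0.539 for mature oligodendrocyte markers. It was 0.367 for microglial, 0.355 for pericyte and smooth muscle, 0.337 for choroid plexus and ependyma, 0.31 for endothelial and 0.114 for neuron markers. Without the 2 libraries these values were 0.505, 0.462, 0.499, 0.245, 0.284, 0.356, 0.339 and 0.0965 in the same order. The part of these cell types in the shared deviation was not tested.

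**Figure D4:**
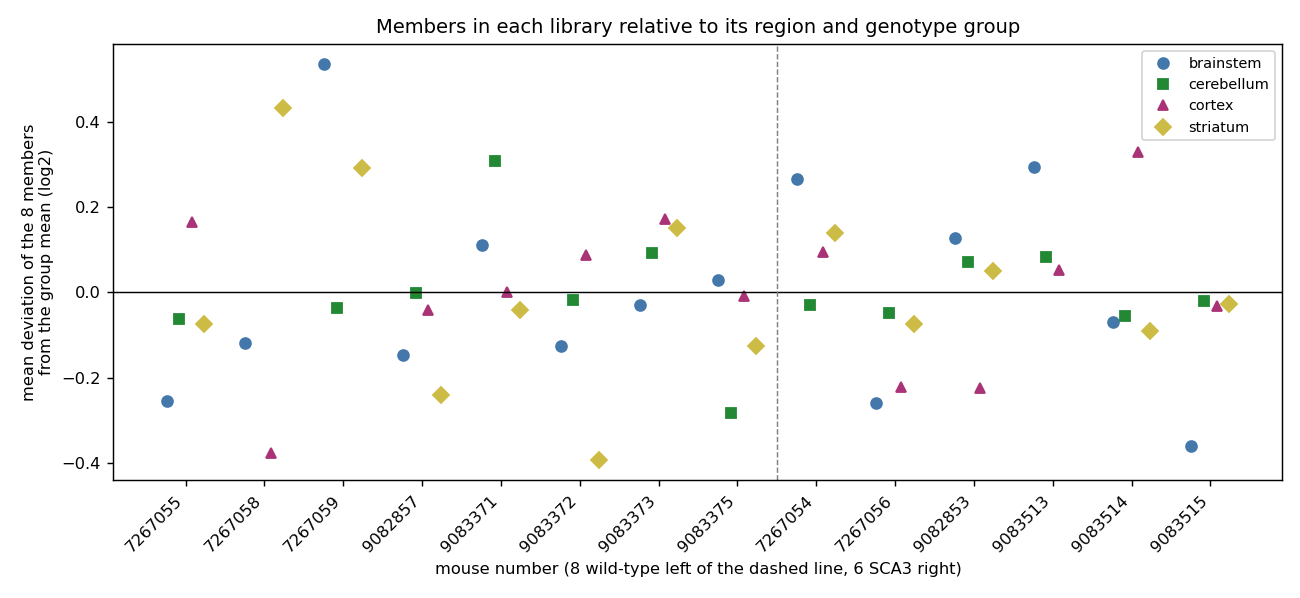
Mean deviation of the 8 genes from their region and genotype group mean (log2) for every library, arranged by mouse, with a symbol and colour for each region. Values run from -0.393 in striatum of wild-type mouse 9083372 to 0.535 in brainstem of wild-type mouse 7267059, and mouse 7267058 is high in striatum (0.431) and low in cortex (-0.376).

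Of the 14 mice, 1 was above its group means in all of its libraries, 3 were below them in all, and 10 were above in some regions and below in others. Mouse 7267058 was at 0.431 in striatum and at -0.376 in cortex, where H2-D1 was 4.28 CPM against 8.671 CPM or more in the other 6 wild-type mice. Mouse 7267059 was high in brainstem (0.535) and striatum (0.291) and near its group in cerebellum (-0.04). SCA3 mouse 7267056 was low in each region, at -0.258 in brainstem, -0.0487 in cerebellum, -0.222 in cortex and -0.0744 in striatum. SCA3 mouse 9083513 was high in brainstem (0.293), cerebellum (0.0827) and cortex (0.0523). In SCA3 mice the deviations ran from -0.359 in brainstem of mouse 9083515 to 0.329 in cortex of mouse 9083514.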

How the data were processed

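Gene values were taken from a single table of raw read counts, with 1 column per library. The authors deposited counts of poly-A RNA prepared without strand information, trimmed with cutadapt 1.10, aligned to GRCm38 with STAR 2.3.0e keeping uniquely aligned reads and counted per RefSeq gene with HTSeq 0.6.1. They kept genes averaging above 4 CPM (12372 genes, lowest mean 4.07 CPM). Without strand, reads of overlapping genes cannot be told apart, and reads shared by near-identical genes are lost. Groups, mouse numbers and RIN came from the sample labels. No pair of libraries was identical.

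Tests were run with edgeR 4.0.16 in R 4.3.3. Following the study, 1 negative binomial model was fitted to all 53 TMM-normalised libraries, with a mean for each of the 8 region-genotype groups, and contrasts were tested with the likelihood ratio test. P-values were adjusted by Benjamini-Hochberg over all genes, and an FDR below 0.05 was called. The combined test covered genotype and its interactions with region, and the test of region dependence the interactions alone. Log2 CPM values, used for the deviations, had a prior count of 2, and log2 fold changes came from the fitted model. Standard errors came from the fitted model. The 95% intervals are for the log2 fold change between groups and are not a range of single mice. Fits were tested on simulated data. The 8 genes, the gene lists and the marker lists were chosen with earlier results of these data known. Genes outside the 8 were named by a rule: in each region up to 3 higher and 3 lower called genes of the lists with the smallest FDR, 12 genes of known role where present (Irf7, Psmb8, Nlrc5 and Isg15 were not in the table, and 1 other is not reported here), and the 5 genes most like the mean of the 8. Ifit3b fell outside this rule and was named after its values were seen, as the remaining called gene. Exon lengths came from GENCODE M21 and promoters from RefSeq (GRCm38.p6), matched by symbol for all 8 genes.

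Libraries of the same mouse are paired by its number. For each of the 6 pairs of regions, deviations of the same mouse had an average r of 0.0904 to 0.186, and the blocked fit estimated a correlation of 0.14. Alternatives were DESeq2 1.42.0, edgeR's quasi-likelihood F test, voom in limma 3.58.1 with or without a mouse block, RLE size factors, at least 10 counts in every library (12337 genes), RIN or number series as covariates, number series alone, RIN of at least 7 (49 libraries), each region alone, a thalamic marker score as covariate, and leaving out libraries or mice.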

Additional observations from a re-analysis of the deposited data

Results flagged for a closer look

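Within groups of 5 to 8 libraries, 10 of 64 gene and group combinations had a library standing apart from the rest by Dixon's criterion, where chance gives about 1 in 20, or 3.2. They came from 6 libraries. In wild-type brainstem, mouse 7267059 was highest for H2-K1 (67.1 CPM, next 48.69), Ifitm3 (20.39, next 9.33) and Ifih1 (13.51, next 8.887). In wild-type striatum, mouse 7267058 was highest for Ifitm3 (14.1 CPM, next 8.706) and Bst2 (8.623, next 4.87). In wild-type cortex the same mouse was lowest for H2-D1 (4.28 CPM, next 8.671) and H2-K1 (23.57, next 31.64), and mouse 9083373 was highest for Ifih1 (8.872 CPM, next 6.696). In wild-type cerebellum, mouse 9083375 was lowest for B2m (91.24 CPM, next 125.1). In SCA3 striatum, mouse 7267056 was lowest for Ifih1 (4.629 CPM, next 5.685).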

How the results depend on the processing

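The count of 0 calls among 32 comparisons of SCA3 with wild-type held in each of 29 alternatives (0 to 3 comparisons at an unadjusted p below 0.05, smallest FDR 0.0663), and the combined test and the test of region dependence gave 0 of 8 in each of 27. With the mouse as a replicate block, limma-voom also called 0 of 32, and 29 of 48 wild-type region comparisons. With the mouse as a fixed block in wild-type libraries alone 26 were called, against 27 without it. Over all 20 alternatives 25 to 32 were called. Of 928 genotype values 0 passed the threshold, 856 kept their sign and 72 did not, the latter from reported values of at most 0.212 in size. Of these, 2 were from a value beyond its SE. B2m in striatum (-0.14) became 0.05 with a thalamic marker score as covariate (0.05236) and without the high thalamic libraries (0.0466). Of 960 region values, 924 kept their sign and 36 did not, 34 lost a call, and 19 gained a call with the same sign. Of the changes of sign, 4 were of a reported value beyond its SE or to a value that was called. Irf9 in cortex against brainstem (0.03) was -0.2501 in SCA3 mice (FDR 0.0277), a further call gained. Ifitm3 in cortex against brainstem (-0.26) was 0.01495 with RIN of at least 7, 0.01494 without both high wild-type libraries and from -0.3476 to 0.01516 over single wild-type mice left out, the last without mouse 7267059. Leaving out those libraries, both limma-voom fits of the region comparison, leaving out the high thalamic libraries for the 7 other genes called in striatum (0 then called) and using SCA3 mice for the region comparison were chosen after seeing the data. The cause of these shifts was not tested. With 5 to 8 mice per group, small genotype differences may have gone undetected.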
